A study of Mus musculus with 201 samples.

Results

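Nuclei that stained for FOS protein but held no detectable *Arc* mRNA were compared with nuclei that had neither. The comparison asks whether FOS protein without *Arc* mRNA marks any activation programme in dentate granule cells (DGCs), the principal neurons of the dentate gyrus. The series holds 201 samples, of which 96 are nuclei of DGCs from a wild-type female C57BL/6 mouse that explored an unfamiliar environment (NE) and was then returned to its home cage (HC). Nuclei were stained for PROX1, the transcription factor that marks DGCs, and for FOS, and were sorted as FOS+ or FOS−. Each sample is a single nucleus that was amplified by the Smart-seq2 protocol and sequenced as single-end reads. Both sorts came from 1 mouse and 1 isolation pool, so each group counts as 1 sample. No test was therefore made between groups, and the spreads given below are those between nuclei.

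Of the 96 NE nuclei, 81 had a total expected count over 50000 and more genes with a TPM (transcript abundance scaled to a fixed total per nucleus) above 1 than the mean of the table minus 2 SD, a limit of 693 genes. A gene with a TPM above 1 is called detected below. Nuclei with an *Arc* TPM of 1 or less were called Arc-negative. This left 9 of 40 FOS+ nuclei and 40 of 41 FOS− nuclei, 49 Arc-negative nuclei in all. The other 31 FOS+ nuclei were Arc-positive and are shown beside them. A further 6 FOS+ and 6 FOS− nuclei with an *Arc* TPM of 1 or less were below the limits and were left out.

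Neuronal activity reaches the nucleus through calcium entry and the MAPK/ERK and CaM kinase cascades, which switch on immediate early genes (IEGs) within minutes. Some IEGs, such as *Fos*, *Egr1* and *Npas4*, encode transcription factors, and others, such as *Arc*, act at synapses. FOS pairs with JUN proteins to form the AP-1 factor, and effector genes such as *Bdnf* and *Nptx2* change the synapses of the neuron. Primary transcripts of IEGs are short-lived, whereas the proteins they encode can outlast them. In the dentate gyrus only a sparse set of DGCs responds to a given experience.

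The Arc-negative and Arc-positive nuclei were selected on their *Arc* TPM, so the values of *Arc* are a description, and so are the differences between Arc-positive and Arc-negative FOS+ nuclei in other genes of the same programme. *Arc* was listed at 0 in all 9 Arc-negative FOS+ nuclei. It was listed at 0 in 38 of the 40 Arc-negative FOS− nuclei, and the other two had a TPM of 0.6 and 0.9, each from an expected count of 1. Just outside the limit stood FOS+ nuclei with an *Arc* TPM of 1.85, 3.03 and 8.77, which rested on expected counts of 1, 1 and 2. The next FOS+ nucleus had a TPM of 145.19. In the 31 Arc-positive FOS+ nuclei *Arc* took from 0.000352% to 0.365% of the expected counts, with a median of 0.107%. A count of 0 allows up to 3 counts, which in the 9 Arc-negative FOS+ nuclei was 0.000374% to 0.00375% of all counts, and 28 of the 31 Arc-positive nuclei were above that range.

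The depth of the 3 groups overlapped in range but differed on average. Mean total counts were 257491 in the Arc-negative FOS+, 334775 in the Arc-negative FOS− and 391613 in the Arc-positive FOS+ nuclei. The medians were 214391, 211312 and 277748, respectively. Total expected counts ran from 80096 to 801665 in the Arc-negative FOS+ nuclei, from 63775 to 1060520 in the Arc-negative FOS− nuclei and from 88348 to 1035170 in the Arc-positive FOS+ nuclei. Genes detected per nucleus averaged 6214 ± 1943 (SD, n = 9), 6283 ± 1558 (SD, n = 40) and 6177 ± 1238 (SD, n = 31), respectively. FOS+ replicate 46 stood apart, with 1373 genes detected against 5633 to 7980 in the other 8 Arc-negative FOS+ nuclei, which averaged 6819 ± 741 (SD, n = 8). Results are given with and without it where it matters.

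The wells of the plate held 4 amplification conditions, made from a template-switching oligonucleotide (TSO) at 1 or 10 µM and an ERCC spike-in diluted 1:200 or 1:2000. The 9 nuclei were spread unevenly over them, with 6 at 10 µM TSO and 1:200 ERCC (FOS+ replicates 14, 15, 19, 20, 22 and 23), 2 at 10 µM and 1:2000 (replicates 42 and 46), 1 at 1 µM and 1:2000 (replicate 32) and 0 at 1 µM and 1:200. The FOS− nuclei were spread evenly, with 9 to 11 in each. The titles also place FOS+ and FOS− nuclei in separate columns of the plate, so that plate column and sort cannot be told apart.

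Markers of DGCs were detected in each of the 9 nuclei, in differing numbers. *Calb1*, the calcium-binding protein calbindin of mature DGCs, was detected in 9 of 9 nuclei at a TPM between 1664 and 15141, with a median of 4997, and in 40 of 40 FOS− nuclei with a median of 5815. *Prox1* was detected in 7 of 9 nuclei and in 33 of 40, and *Rbfox3*, which encodes the neuronal marker NEUN, in 8 of 9 and 30 of 40. Of 12 DGC markers, 8.22 ± 2.68 (SD, n = 9) were detected per Arc-negative FOS+ nucleus and 8.03 ± 2.40 (SD, n = 40) per Arc-negative FOS− nucleus. Replicate 46 held 3 of the 12, the fewest. *Prox1* was listed at 0 in replicates 19 and 46, and *Rbfox3* in replicate 19.

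Markers of other cells were scattered and mostly low. All defining markers of microglia other than *Cx3cr1* and *P2ry12* (*Csf1r*, *C1qa*, *C1qb*, *C1qc* and *Tyrobp*) were listed at 0 in the 9 nuclei, as were *Gfap*, *Aqp4* and *Aldh1l1* of astrocytes, *Mog*, *Olig1*, *Olig2* and *Cnp* of oligodendrocytes, and *Slc32a1*, *Sst*, *Pvalb* and *Reln* of interneurons. The summed TPM of the 8 interneuron markers ran from 0 to 419 in these nuclei and from 0 to 5822 in the FOS− nuclei. That of the 7 astrocyte markers ran from 4.71 to 1613, with a median of 259.9, against 0 to 2440 with a median of 9.93 in the FOS− nuclei, and 4 of the 7 were detected in any of the 9. The high sums came from *Slc1a3*, a glutamate transporter, in replicates 14, 15, 19 and 23 (TPM 111.57 to 364.46) and from *Aldoc*, aldolase C, in replicates 22 and 46 (223.87 and 1613). *Slc1a3* was detected in 7 of 9 nuclei, in 24 of 40 FOS− nuclei and in 24 of 31 Arc-positive FOS+ nuclei. The part of these transcripts in the results was not tested. Markers of immature DGCs were detected at 0.889 ± 1.05 (SD, n = 9) of 7 per nucleus against 1.23 ± 1.07 (SD, n = 40).

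IEGs other than *Arc* were scarce in the Arc-negative FOS+ nuclei. Of a list of 20 IEGs, replicates 14, 15, 19 and 32 held 3 each, replicate 42 held 4, replicate 20 held 2, replicates 22 and 46 held 1 each and replicate 23 held 0. The mean was 2.22 ± 1.3 (SD, n = 9), against 1.75 ± 1.51 (SD, n = 40) in the Arc-negative FOS− nuclei, which ranged from 0 to 6. These means are 0.472 genes apart, which is less than the SD among nuclei in either group, and none of the 9 nuclei lay above the range of the FOS− nuclei. The Arc-positive FOS+ nuclei held 8.39 ± 3.79 (SD, n = 31), and 27 of these 31 held more IEGs than any of the 9. Without replicate 46 the mean was 2.38 ± 1.3 (SD, n = 8). With every nucleus thinned to 50000 counts, the means were 1.44 (Arc-negative FOS+), 1.15 (Arc-negative FOS−) and 7.65 (Arc-positive FOS+).

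**Figure D1:**
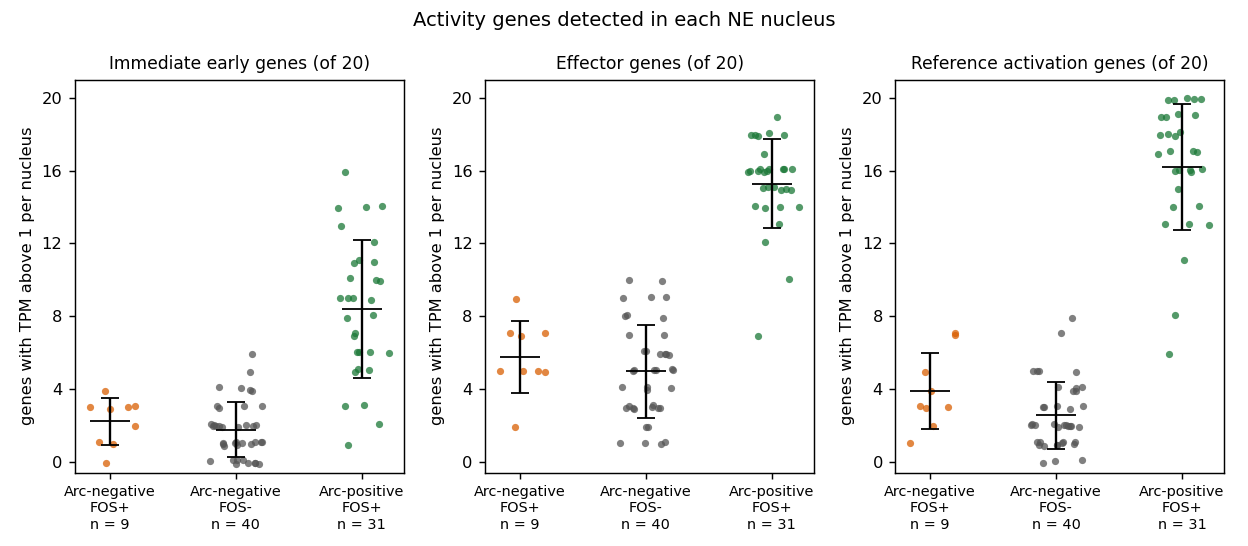
Number of genes with a TPM above 1 in each nucleus, out of 20 IEGs, 20 effector genes and 20 reference activation genes. Each point is 1 nucleus, moved slightly at random so that points do not cover each other, and the bars give the mean and SD. The 9 Arc-negative FOS+ nuclei lie within the range of the 40 Arc-negative FOS− nuclei in all 3 panels, with means of 2.22, 5.78 and 3.89 genes against 1.75, 4.98 and 2.55, and the Arc-positive FOS+ nuclei average 8.39, 15.3 and 16.2.

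*Fos* mRNA itself was not detected in any of the 9 nuclei sorted for FOS protein. This is 0 of 9, with an exact 95% interval of 0% to 33.6%, against 3 of 40 FOS− nuclei (7.5%, exact interval 1.57% to 20.4%) and 12 of 31 Arc-positive FOS+ nuclei (38.7%, exact interval 21.9% to 57.8%). The intervals cover the counting of nuclei only, and those of the 9 and of the Arc-positive nuclei overlap. *Fos* lies at chr12:85473890-85477273 (GRCm38, plus strand). Its relative *Fosb* was found in 0 of 9 nuclei, in 2 of 40 FOS− nuclei and in 19 of 31 Arc-positive nuclei.

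In all, 11 of the 20 IEGs were detected in none of the 9 nuclei. These were *Fos*, *Fosb*, *Egr2*, *Egr3*, *Egr4*, *Nr4a1*, *Npas4*, *Ier2*, *Ier5*, *Dusp1* and *Maff*. Against the FOS− nuclei, the share of nuclei with the gene was higher for 6 of the 20, lower for 10 and equal for 4. Against the Arc-positive FOS+ nuclei it was lower for 19 of the 20. The exception was *Klf4*, a Krüppel-like transcription factor, with a TPM of 10.97 in replicate 15 and 33.37 in replicate 22, against 0 of 40 FOS− nuclei and 2 of 31 Arc-positive nuclei.

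The IEGs that were found in the 9 nuclei came mainly from the *Jun* and *Nr4a* families. *Jun*, a partner of FOS in AP-1, was detected in 5 of 9 nuclei, in 14 of 40 FOS− nuclei and in 24 of 31 Arc-positive nuclei. Its highest TPM among the 9 was 57.58 (replicate 19), and its mean log2(TPM + 1) was 2.06 ± 2.34 (SD, n = 9) against 2.07 ± 3.11 (SD, n = 40) in the FOS− nuclei. *Junb* was detected in 1 of 9, 4 of 40 and 17 of 31 nuclei. *Egr1*, a zinc-finger factor, had a TPM of 128.02 in replicate 19 and was listed at 0 in the other 8 nuclei.

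*Nr4a2* and *Nr4a3* encode orphan nuclear receptors that respond to activity. *Nr4a2* was detected in 4 of 9 nuclei, at a TPM of 36.87, 155.75, 99.14 and 1.06 in replicates 14, 15, 20 and 32. The highest of the 40 FOS− nuclei had a TPM of 8.31, and 9 of them were above 1. Summed over nuclei its level was 43.7 CPM (its counts scaled to the total of all counts of the group, exact Poisson 95% interval 35.6 to 53.1) against 1.42 (0.856 to 2.22) in the FOS− nuclei and 745 in the Arc-positive FOS+ nuclei. For *Nr4a3*, found in 3 of 9 and 4 of 40 nuclei, 94.8% of the summed counts of the 9 came from a single nucleus, replicate 15, with a TPM of 425.96. These intervals cover counting error only, because several reads can stem from the same molecule.

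**Figure D2:**
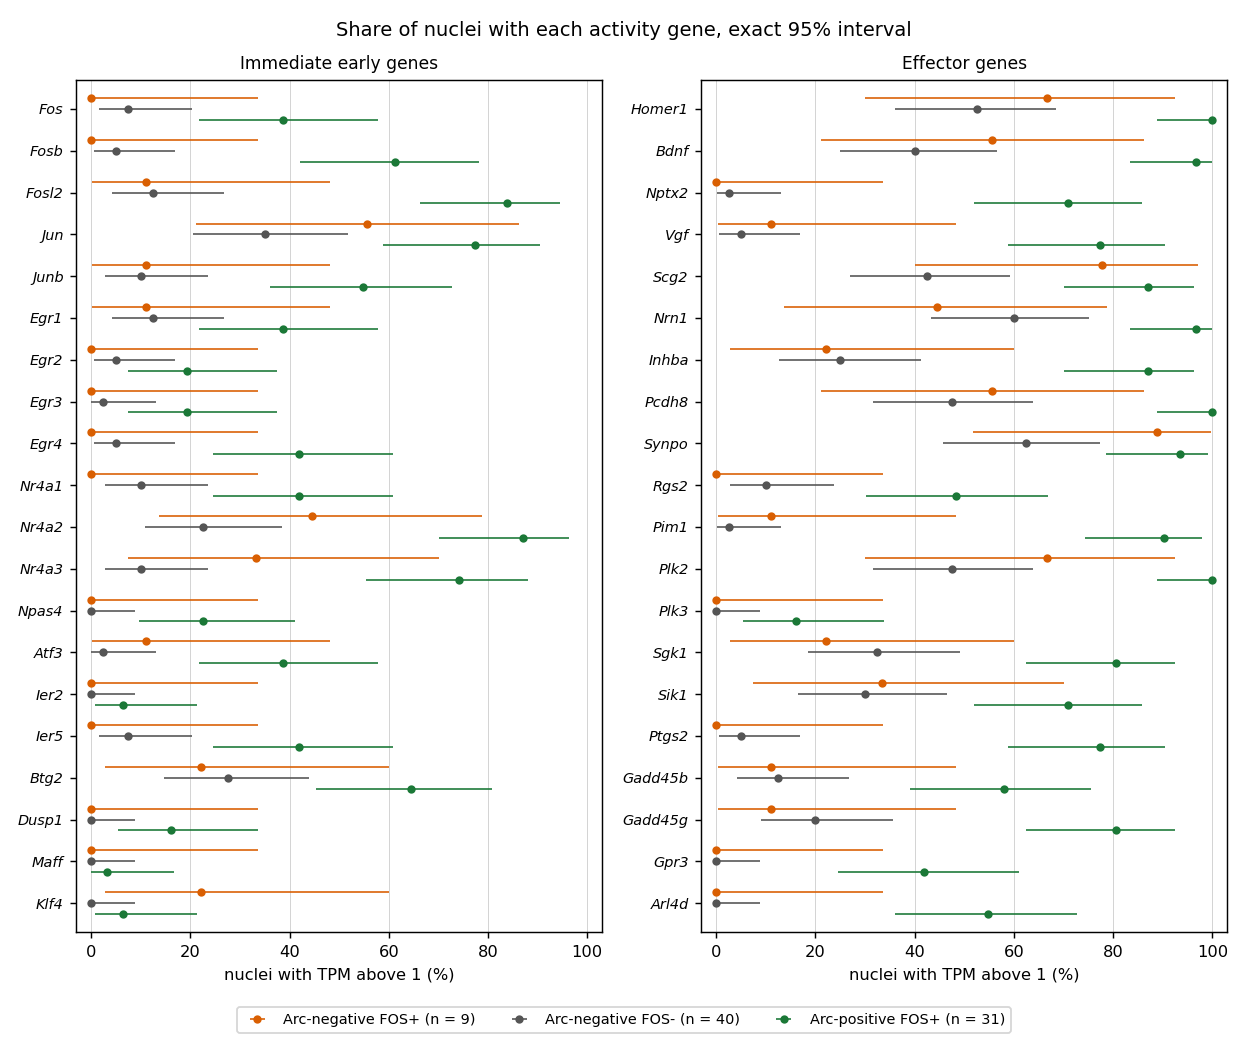
Share of nuclei with a TPM above 1 for the 20 IEGs (left) and the 20 effector genes (right). Points are shares in percent and lines are exact 95% binomial intervals, in orange for the 9 Arc-negative FOS+ nuclei, grey for the 40 Arc-negative FOS− nuclei and green for the 31 Arc-positive FOS+ nuclei. The orange shares lie below the green ones for all 20 effector genes and for 19 of the 20 IEGs, and on either side of the grey ones.

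The effector genes, which encode secreted factors, synaptic proteins and kinases, gave the same order. The paper counts *Homer1* of this list among the IEGs, so the lists are not separate stages of the response. Of 20 genes, replicate 42 held 2, replicates 19, 20, 32 and 46 held 5 each, replicates 14, 15 and 22 held 7 each and replicate 23 held 9. The mean was 5.78 ± 1.99 (SD, n = 9) against 4.98 ± 2.57 (SD, n = 40) in the Arc-negative FOS− nuclei, a difference of 0.803 genes and less than the SD between nuclei. The difference turned to -0.406 genes when all NE nuclei were kept and to -0.358 when the amplification conditions were weighted equally. The Arc-positive FOS+ nuclei averaged 15.3 ± 2.44 (SD, n = 31), and 30 of the 31 held more than any of the 9.

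Several effector genes were detected in most of the 9 nuclei, at levels that differed between genes. *Homer1*, a postsynaptic scaffold protein, was found in 6 of 9 nuclei with a median TPM of 22.25 and a highest of 114.44. It was found in 21 of 40 FOS− nuclei with a highest TPM of 733.65, and in 31 of 31 Arc-positive nuclei with a median of 491.07. *Plk2*, a kinase that weakens synapses after activity, was detected in 6 of 9 nuclei with a median TPM of 3.98, in 19 of 40 FOS− nuclei, and in all 31 Arc-positive nuclei with a median of 969.28. *Bdnf*, a neurotrophin, was detected in 5 of 9, 16 of 40 and 30 of 31 nuclei. *Inhba*, which encodes an activin subunit, was detected in 2 of 9 nuclei at a TPM of 7.53 and 7.36, in 10 of 40 and in 27 of 31 with a median of 684.53. For 16 of the 17 effector genes with a median TPM above 1 in the Arc-positive nuclei, every one of the 9 was below that median.

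Summed over nuclei, *Homer1* gave 56.9 CPM (47.6 to 67.5) in the 9 nuclei and 109.7 (104 to 115) in the FOS− nuclei, against 1986 in the Arc-positive FOS+ nuclei. *Plk2* gave 18.1 (13.1 to 24.5), 33.8 (30.7 to 37.04) and 2188. The level over all counts was thus lower in the 9 than in the FOS− nuclei for both, whereas their share of nuclei was higher. Their mean log2(TPM + 1) per nucleus was also higher in the 9, by 0.614 for *Homer1* and 0.471 for *Plk2*. Deep nuclei weigh most in a sum of counts, so the direction depended on the measure. A single nucleus gave 51.5% of the *Homer1* counts of the 9 and 57.1% of those of *Plk2*.

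The exception among the 17 was *Scg2*, which encodes the neuropeptide precursor secretogranin II. It was detected in 7 of 9 nuclei, at a TPM from 9.65 to 518.21 in those 7, with a median over the 9 of 172.95. It was detected in 17 of 40 FOS− nuclei, with a median of 0 and a highest TPM of 606.28, and in 27 of 31 Arc-positive nuclei with a median of 291.44. The gap to the FOS− nuclei of 35.3 percentage points was 60 points within the 10 µM TSO and 1:200 ERCC condition and had the other direction in the other conditions that held both groups, where the 3 remaining nuclei lie. *Nrn1*, a neuritin, and *Synpo*, an actin-associated spine protein, were found in 4 of 9 and 8 of 9 nuclei, against 24 of 40 and 25 of 40 FOS− nuclei. Their shares in the Arc-positive nuclei were 96.8% and 93.5%. In those 8 nuclei the TPM of *Synpo* ran from 2.5 to 546.93. Its mean log2(TPM + 1) was higher in the 9 than in the FOS− nuclei by 2.09. The gap in share of *Synpo* was 30 points at 10 µM TSO and 1:200 ERCC and 44.4 at 1 µM and 1:2000, but -50 at 10 µM and 1:2000.

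A reference set was then taken from the other FOS+ nuclei. It holds the 20 genes, without *Arc*, whose share of nuclei with the gene was most different between Arc-positive FOS+ and Arc-negative FOS− nuclei. The 9 nuclei took no part in the choice, whereas the values of the other groups chose the genes and are a description. The set was *Pim1*, *1700016P03Rik*, *Pmepa1*, *Ptgs2*, *Vgf*, *Etv3*, *Fosl2*, *Tsc22d2*, *Ankrd33b*, *Nptx2*, *Mapk4*, *Cenpa*, *Ifrd1*, *Nr4a2*, *Nr4a3*, *Mir22hg*, *Inhba*, *Stmn4*, *Grk6* and *Smad7*. Among these are a kinase (*Pim1*), the prostaglandin synthase COX-2 (*Ptgs2*), a secreted neuropeptide precursor (*Vgf*) and an AP-1 subunit (*Fosl2*).

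The 9 nuclei held 4, 7, 1, 7, 3, 3, 3, 5 and 2 of the 20 reference genes (replicates 14, 15, 19, 20, 22, 23, 32, 42 and 46), a mean of 3.89 ± 2.09 (SD, n = 9). The FOS− nuclei held 0 to 8 with a mean of 2.55, and the Arc-positive FOS+ nuclei 6 to 20 with a mean of 16.2. Thinned to 50000 counts, the means were 2.67, 1.75 and 15.1. None of the 9 lay above the range of the FOS− nuclei. Of the 20 genes, 5 were detected in none of the 9 nuclei, namely *1700016P03Rik*, *Ptgs2*, *Nptx2*, *Mapk4* and *Cenpa*. The share of nuclei was lower than in the Arc-positive nuclei for all 20, and higher than in the FOS− nuclei for 12 and lower for 8. The Arc-positive FOS+ nuclei and the 9 were both set against the same 40 FOS− nuclei.

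*Pim1* had the widest gap of the set between the Arc-positive FOS+ and the FOS− nuclei. It was detected in 1 of 9 nuclei, at a TPM of 6.4 in replicate 22, and in 1 of 40 FOS− nuclei, but in 28 of 31 Arc-positive nuclei with a median TPM of 94.81. *Ptgs2* was found in 0 of 9, 2 of 40 and 24 of 31 nuclei, and *Nptx2*, a secreted pentraxin that clusters AMPA receptors, in 0 of 9, 1 of 40 and 22 of 31.

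High values of reference genes were not shared evenly among the 9. Replicate 15 held the highest TPM of the group for 6 of the 15 reference genes found in any of them. In this nucleus *Ifrd1* had a TPM of 599.99, *Nr4a3* 425.96, *Mir22hg* 421.31, *Ankrd33b* 410.37 and *Nr4a2* 155.75. *Fos*, *Fosb*, *Egr1*, *Junb* and *Arc* were listed at 0 there. The FOS− nuclei also held such values, with a highest TPM of 2285 for *Ifrd1* and 393.71 for *Ankrd33b*.

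Some promoters of activity genes hold the letters of the cAMP response element (CRE), TGACGTCA, and the windows below show them. CREB binds this element and is among the first factors that calcium signals act on. Both strands were searched in the 250 bases before each gene start in the RefSeq promoters of GRCm38.p6. The element is its own reverse complement. It was present for 3 of the 17 IEGs and 3 of the 15 effector genes with a promoter in the table, none of the 12 reference genes, and 1.77% of all 27025 genes. The letters TGANTCA allow any base in the middle and are wider than the AP-1 consensus. They occurred in the promoter of 1 of the 15 effector genes, of no IEG or reference gene and of 7.82% of all genes. The effector gene was *Bdnf*, where the match read TGAATCA. The 6 windows are given 5′ to 3′ on the strand of the gene, with the CRE in capitals.
*Btg2*, chr1:134079298-134079337, minus strand: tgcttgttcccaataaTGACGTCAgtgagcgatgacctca
*Dusp1*, chr17:26508592-26508631, minus strand: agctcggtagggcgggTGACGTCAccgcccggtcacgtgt
*Maff*, chr15:79347475-79347514, plus strand: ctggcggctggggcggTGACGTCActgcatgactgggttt
*Scg2*, chr1:79440071-79440110, minus strand: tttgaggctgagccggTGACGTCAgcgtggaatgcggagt
*Plk2*, chr13:110394966-110395005, plus strand: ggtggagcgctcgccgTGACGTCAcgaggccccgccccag
*Arl4d*, chr11:101665499-101665538, plus strand: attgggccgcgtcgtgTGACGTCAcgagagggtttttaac

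The 6 genes with this element behaved differently in the 9 nuclei. *Scg2* was detected in 7, *Plk2* in 6 and *Btg2*, an antiproliferative factor, in 2, whereas the phosphatase gene *Dusp1*, *Maff* and the small GTPase gene *Arl4d* were detected in none. In the 40 FOS− nuclei these genes were detected in 17, 19, 11, 0, 0 and 0 nuclei, and in the 31 Arc-positive FOS+ nuclei in 27, 31, 20, 5, 1 and 17. A match of letters is not evidence of binding.

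Genes upstream of *Fos* were detected at like numbers in all 3 groups. Of 16 genes of the MAPK, RSK, CREB, SRF, MEF2 and CaM kinase families, 8.89 ± 2.15 (SD, n = 9) were detected per nucleus, against 8.75 ± 2.75 (SD, n = 40) in the Arc-negative FOS− nuclei and 8.97 ± 2.37 (SD, n = 31) in the Arc-positive FOS+ nuclei. *Camk2a* was detected in all 9 nuclei with a median TPM of 666.11 and in 39 of 40 FOS− nuclei with a median of 558.9. *Creb1*, which encodes the factor that binds the CRE, was detected in 6 of 9 and 21 of 40 nuclei. *Elk1*, an ERK target that acts with SRF, was found in 4 of 9 nuclei and in 29 of 40.

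Glutamate and GABA receptor subunits and calcium channels were also present. Of 18 such genes, 13.6 ± 3.28 (SD, n = 9) were detected per nucleus against 12.3 ± 2.47 (SD, n = 40), and 14.5 ± 1.77 (SD, n = 8) without replicate 46. *Grin2b*, *Gria1* and *Cacna1e* were detected in all 9 and in all 40 nuclei. *Cacna1g*, which encodes a T-type calcium channel, was detected in 5 of 9 nuclei, in 6 of 40 FOS− nuclei and in 8 of 31 Arc-positive FOS+ nuclei. Its summed level was 206 CPM (188 to 225) against 49.8 (46.1 to 53.8), but 59.0% of the summed counts of the 9 came from 1 nucleus.

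Of 8 genes that the study had named as higher in FOS− nuclei, all had a lower share in the 9 than in the Arc-negative FOS− nuclei, and 6 of the 8 a higher share than in the Arc-positive FOS+ nuclei. The study chose these genes on FOS+ and FOS− nuclei of this mouse. It first left out 9 FOS+ nuclei low in *Arc*, *Fos* and *Egr1* RNA, which it calls pseudo-FOS+. The text of the paper does not list them, so their overlap with the 9 nuclei here is unknown. The study found no gene different after correction between them and the neighbouring FOS− cluster, and many higher than in FOS+ nuclei. The FOS− nuclei took part in the choice, so the lower share is not independent evidence of a direction. *Calcoco1*, a coactivator, was detected in 2 of 9, 19 of 40 and 1 of 31 nuclei, and *Tdp1*, a DNA repair enzyme, in 1 of 9, 13 of 40 and 0 of 31, which allows up to 11.2% (exact interval). *Topbp1* was nearly level, at 88.9% against 90%. Per nucleus the 9 held 2.44 ± 0.882 (SD, n = 9) of the 8 genes, the FOS− nuclei 3.53 ± 1.48 (SD, n = 40) and the Arc-positive nuclei 1.61 ± 0.615 (SD, n = 31). Of 12 genes that the study had named in connection with activity, the 3 groups held 3.33 ± 1.41, 3.28 ± 0.933 and 7.23 ± 2.14 (SD, n = 9, 40 and 31). These genes too were named on nuclei of this mouse, so the gap between Arc-positive FOS+ and FOS− nuclei is a description. Among them, *Rps6ka3* was reported by the study only as a trend and as upstream of *Fos*. The share in the 9 was lower than in the Arc-positive nuclei for 10 of the 12 and higher for 1. This 1 was *Clasp2*, detected in 88.9% of the 9, 95% of the FOS− and 54.8% of the Arc-positive nuclei.

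A scan of all genes used a rule of size in place of a test. A gene was counted when its share of nuclei differed by at least 40 percentage points and its mean log2(TPM + 1) by at least 2 in the same direction. Of 14510 genes detected in at least 5 of the 49 Arc-negative nuclei, 53 were higher (0.365%) and 24 lower (0.165%) in the FOS+ nuclei. These numbers depended on the nuclei used, with 1 higher and 136 lower when all NE nuclei were kept and 174 higher and 25 lower without replicate 46. The rule counted no IEG, effector or reference gene in either direction, and of all lists only *Cacna1g* among the receptors and channels. At the shares over all genes, lists as short as these would give none in any case. The lack of counted genes is therefore not a result about the activity genes. The median gap over all genes was -0.833 percentage points, against 1.11 for the 7 IEGs, 5.69 for the 12 effector genes and 8.47 for the 14 reference genes that were compared. Since a gene had to be detected in 5 nuclei, these are not the whole lists. The reference genes were also chosen in part for a low share in these same FOS− nuclei. The choice alone can raise their gap, so it is a description.

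The same rule gave other numbers for the other pairs of groups, which are of other sizes. Arc-positive FOS+ against Arc-negative FOS− nuclei gave 93 of 15862 genes higher (0.586%) and 36 lower (0.227%), among them 6 IEGs and 16 effector genes that were higher. The 9 nuclei against the Arc-positive FOS+ nuclei gave 224 of 12989 genes higher (1.72%) and 143 lower (1.1%). With 9 nuclei in a group a share moves by over 10 points with each nucleus, so counts of this kind depend on the size of the group and cannot be ranked against each other.

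Of the 53 genes that were higher, 29 were higher in each of the 3 amplification conditions that held both groups, and 19 of the 24 were lower in each. The widest gap among these 29 was that of *Errfi1* (chr4:150853919-150868892, plus strand), a feedback inhibitor of EGF receptor signalling that responds to mitogens and stress. It was detected in 7 of 9 nuclei, at a TPM of 5.06, 410.51, 232.29, 87.7, 1.38, 101.26 and 3.67 in replicates 14, 15, 19, 23, 32, 42 and 46. It was detected in 7 of 40 FOS− nuclei with a highest TPM of 541.21, and in 17 of 31 Arc-positive FOS+ nuclei. The exact intervals of the share were 39.99% to 97.2% and 7.34% to 32.8%, and did not overlap. They take no account of the number of genes scanned, and the gene was chosen for its gap.

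None of the 10 named genes with a higher share is in the IEG, effector or reference lists. With 0.365% of all genes counted as higher, lists this short would give none in any case. This absence is therefore not a result about the activity genes. *Ncoa6* (chr2:155390656-155473894, minus strand), a nuclear receptor coactivator, was detected in 8 of 9 nuclei with a median TPM of 145.34, against 15 of 40 FOS− nuclei with a median of 0 and 10 of 31 Arc-positive nuclei. Its summed level was 350 CPM (327 to 375) against 50.4 (46.7 to 54.4). *Fbxo42*, an F-box protein of a ubiquitin ligase, was detected in 5 of 9, 3 of 40 and 2 of 31 nuclei, and *Ddb1*, a ubiquitin ligase adaptor, in 6 of 9, 8 of 40 and 10 of 31. *Hpca*, which encodes the neuronal calcium sensor hippocalcin, was detected in 8 of 9, 16 of 40 and 18 of 31 nuclei, but its summed level was lower in the 9 nuclei, at 112 against 171 CPM. *Nrip3*, *1110032A03Rik* and *1810022K09Rik* were detected in 7, 8 and 8 of 9 nuclei against 12, 14 and 15 of 40. Their shares in the Arc-positive FOS+ nuclei were 54.8%, 51.6% and 35.5%. *Gm17112*, an antisense gene, and *Gm25591*, annotated as a miRNA, rested on summed expected counts of 6 and 9.71 in the 9 nuclei.

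**Figure D3:**
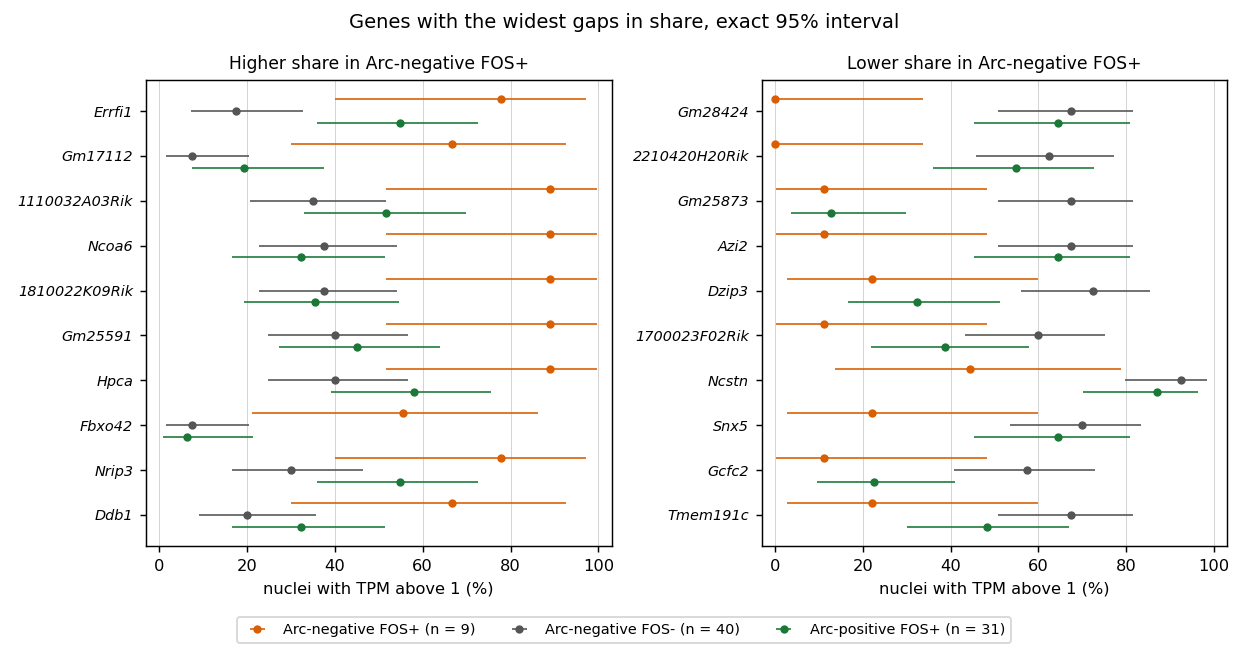
Share of nuclei with a TPM above 1 for the 10 genes with the widest gap in each direction between Arc-negative FOS+ and Arc-negative FOS− nuclei, among those with the same direction in 3 amplification conditions. Points are shares in percent with exact 95% binomial intervals, for the 9 Arc-negative FOS+ (orange), 40 Arc-negative FOS− (grey) and 31 Arc-positive FOS+ nuclei (green). The genes were chosen for this gap. *Errfi1* stands at 77.8% in the 9 nuclei, 17.5% in the FOS− nuclei and 54.8% in the Arc-positive FOS+ nuclei.

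Among the genes with a lower share, *Gm28424*, an antisense gene, and *2210420H20Rik*, a long noncoding RNA, were listed at 0 in all 9 nuclei. They were detected in 27 and 25 of 40 FOS− nuclei and in 20 and 17 of 31 Arc-positive FOS+ nuclei. At this sample size 0 of 9 allows a share of up to 33.6% (exact interval). *Ncstn* (chr1:172066013-172082795, minus strand), which encodes nicastrin of the γ-secretase complex, was detected in 4 of 9 nuclei, 37 of 40 and 27 of 31. *Azi2*, an adaptor of TBK1 signalling, was detected in 1 of 9, 27 of 40 and 20 of 31 nuclei, and *Snx5*, a sorting nexin, in 2 of 9, 28 of 40 and 20 of 31. For *Gm25873*, annotated as a small nuclear RNA, *Dzip3* and *Gcfc2* the 9 nuclei (1, 2 and 1) stood nearer to the Arc-positive FOS+ nuclei (4, 10 and 7 of 31) than to the FOS− nuclei (27, 29 and 23 of 40). *1700023F02Rik* and *Tmem191c* were detected in 1 and 2 of 9 nuclei against 24 and 27 of 40. Whether the reads were counted by strand is not given in the sources used here, so antisense genes cannot be told apart from the genes they overlap.

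The whole profile of each nucleus was set against the mean log2(TPM + 1) of the 40 Arc-negative FOS− and of the 31 Arc-positive FOS+ nuclei, over 9261 genes detected in at least 20 nuclei and without *Arc*. A nucleus was left out of the mean of its own group. Pearson's r is given as a description across genes, which are not independent. Among the 9 nuclei, r with the FOS− mean was 0.526 ± 0.112 (SD, n = 9) and r with the Arc-positive mean 0.465 ± 0.0942 (SD, n = 9). The FOS− value was the higher in all 9, by 0.0108 (replicate 46) to 0.0868 (replicate 22), with a median of 0.0640. In the 40 FOS− nuclei the same difference was positive in all 40, between 0.0336 and 0.0941, with a median of 0.0638. In the Arc-positive FOS+ nuclei it was positive in 2 of 31 and had a median of -0.0819. Without the IEGs, effector and reference genes it was positive in 9 of the 9 nuclei and in 2 of the 31. The means rest on 40 and 31 nuclei, and the part of this inequality in r was not tested.

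**Figure D4:**
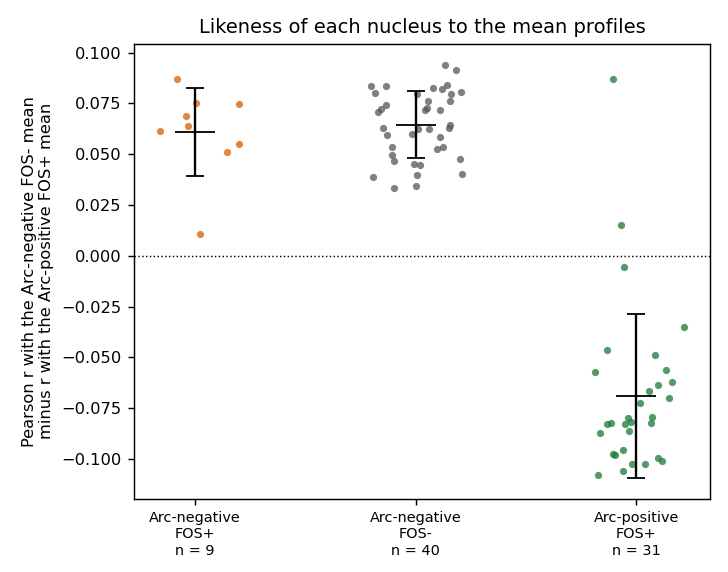
Pearson's r of each nucleus with the mean profile of the Arc-negative FOS− nuclei minus its r with that of the Arc-positive FOS+ nuclei, over 9261 genes. Each point is 1 nucleus and the bars give the mean and SD. All 9 Arc-negative FOS+ nuclei are above 0, 8 of them among the 40 Arc-negative FOS− nuclei and replicate 46 below these at 0.0108, whereas 29 of the 31 Arc-positive FOS+ nuclei are below 0.

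The Arc-positive nuclei near the limit differed among themselves. The FOS+ nucleus with an *Arc* TPM of 3.03 (replicate 21) held 1 IEG, 7 effector and 6 reference genes and had a profile difference of 0.0870. The one with a TPM of 1.85 (replicate 31), from a single count, held 6, 16 and 15 and had a difference of -0.0797, and the one with 8.77 (replicate 30) held 7, 12 and 8 with a difference of -0.00534. These values are outside the range of the 9 nuclei for replicates 30 and 31 and inside it for the gene numbers of replicate 21.

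Within the 10 µM TSO and 1:200 ERCC condition, which alone held more than 2 of the 9 nuclei, the 6 Arc-negative FOS+ nuclei had 2.00 ± 1.26 IEGs, 6.67 ± 1.51 effector genes and 4.17 ± 2.40 reference genes (SD, n = 6). The 10 FOS− nuclei had 0.9 ± 0.994, 4.3 ± 2.50 and 2.00 ± 1.15 (SD, n = 10). These 6 nuclei were also the deeper ones, at an average of 182817 counts and 6700 ± 665 genes (SD, n = 6) against 114166 counts and 6044 ± 1114 genes (SD, n = 10), and the part of depth in this difference was not tested. At 10 µM and 1:2000 the 2 nuclei, of which replicate 46 is one, had 2.5 IEGs, 3.5 effector genes and 3.5 reference genes on average. The 11 FOS− nuclei of that condition had 2.64, 7.27 and 3.82. At 1 µM and 1:2000 the single nucleus, replicate 32, had 3 IEGs, 5 effector and 3 reference genes. The 9 FOS− nuclei there averaged 1.44, 4.67 and 2.56.

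Nuclei of an HC mouse give a further baseline. They were prepared on another platform (the Fluidigm C1) and had fewer genes detected, 3237 ± 371 (SD, n = 23). They held 0.565 ± 0.662 of the 20 IEGs, 2.22 ± 1.09 of the 20 effector genes and 1.78 ± 1.38 of the 20 reference genes (SD, n = 23). *Fos* was detected in 0 of the 23, *Nr4a2* in 4 and *Homer1* in 7. Since platform, depth and mouse differ together, these values stand beside those of the NE nuclei without a comparison.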

How the data were processed

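Single nuclei were sorted by PROX1 and FOS staining and amplified by Smart-seq2. Reads were trimmed by the authors and quantified with RSEM, using Bowtie 1.0.0, on GRCm38 and the Ensembl annotation. Expected counts and TPM values per gene symbol were deposited. The deposited expected counts are not normalized, and the TPM values were scaled by the authors within each nucleus. The spike-in criterion of the study was not applied here.

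Each group was 1 sample, since all NE nuclei came from 1 mouse, so no test was made although the study treated nuclei as replicates. Shares were given exact Clopper-Pearson 95% intervals and sums of counts exact Poisson intervals, both for counting error only (scipy 1.17.1). A pseudocount of 1 was used for log2 values. A count of 3 corresponded to 0.000374% to 0.00375% of the total in the Arc-negative FOS+ nuclei. All genes of the IEG and effector lists and the 20 reference genes were named, with the 10 genes of the widest gap in each direction. Other lists were named by their counts. The groups and lists were chosen with earlier results of these data known. Alternatives included scaling by edgeR 4.0.16 and DESeq2 1.42.0 factors and thinning to 50000 counts. No doublet caller was run on these sorted nuclei. No columns were identical. HC nuclei were used as a baseline, and whole cells were not used here.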

Additional observations from a re-analysis of the deposited data

Results flagged for a closer look

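The number of values checked for a sample far from the others was 10, each over the 9 Arc-negative FOS+ nuclei, and chance alone sets about 1 in 20 such groups apart. FOS+ replicate 32 had the highest total expected count, 801665, with a gap to the next nucleus of 0.642 of the whole range. It was the only 1 of the 9 amplified at 1 µM TSO and 1:2000 ERCC, where the 9 FOS− nuclei had an average of 661528 counts.

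FOS+ replicate 46 was apart from the others in 3 values. It had 1373 genes detected (gap 0.645 of the range), 6 of the 18 receptor and channel genes (gap 0.5) and a difference between its profile correlations of 0.0108 (gap 0.533). It also had the lowest total of the 9, 80096 counts. Without it, genes higher in the Arc-negative FOS+ nuclei numbered 174 in place of 53.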

How the results depend on the processing

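The difference between Arc-negative FOS+ and FOS− nuclei in IEGs per nucleus was 0.0594 with all NE nuclei and 1.1 in the 10 µM TSO and 1:200 ERCC condition, and that in effector genes -0.406 and 2.37. That in genes detected was -1809 and 656. The numbers of genes past the rule of size also moved. With all NE nuclei (15 FOS+ and 46 FOS−) 1 gene was higher and 136 lower, and with limits of 50 points and 3 on the log2 scale 2 and 1. A count of at least 5 as detection gave 9 lower, a pseudocount of 0.1 gave 49 lower and equal weights for the conditions gave 194 lower. Chosen after seeing the data, an *Arc* limit of 10 TPM (12 FOS+ and 41 FOS−) gave 5 higher, and the 10 µM TSO and 1:200 ERCC condition alone gave 386 higher and 181 lower. Leaving out each of the 9 nuclei in turn gave 75 to 174 higher and 25 to 57 lower. The number moved by over 1.5 times in both directions without any 1 of replicates 14 (87 and 48), 15 (86 and 50), 22 (84 and 39) and 32 (94 and 44), among higher genes also without 19 (94) or 46 (174), and among lower genes also without 20 (44), 23 (41) or 42 (57). The cause was not tested. All 371 gaps of the 20 named genes under the alternatives kept their sign. The genes were chosen for wide gaps of one direction in these same nuclei, so this was largely set by the choice. A named gene detected in fewer than 5 nuclei under an alternative gave no value there. Of the 371, 24 moved by more than the exact interval of the share in the 9 nuclei allows. With thinning to 50000 counts the gap of *1110032A03Rik* fell to 4.72 points. Without each nucleus in turn, the IEG difference ran from 0.25 to 0.75 and the effector difference from 0.4 to 1.28. The mean number of reference genes in the Arc-negative FOS+ nuclei, which is not a difference, ran from 3.5 to 4.25. The effector difference was -0.358 with equal weights. With 9 nuclei, 0 of 9 allows a share of up to 33.6%. No paired analysis was possible because the replicate numbers only name the nuclei, in deposit order, and tie no FOS+ nucleus to a FOS− nucleus, and because no test was made.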
